A study of Mus musculus with 24 samples.

Results

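The levels of 8 genes with known p53 control were followed in primary murine astrocytes after X-ray exposure. The genes were chosen by name as the p53 targets that act in DNA repair, deoxynucleotide supply and redox control, and their gene identifiers were found for 8 of 8 symbols among the 49315 genes listed in each count table. RNA of primary astrocytes from the brain cortex of wild-type C57BL/6J mouse embryos was sequenced after poly(A) selection, 6 h and 24 h after irradiation with 0, 0.1 or 2 Gy X-rays, with 4 libraries in each of the 6 groups. The 0 Gy cultures had the same genotype, strain and harvest times as the irradiated ones, and the labels name no other agent. As the study's methods state, the cortices of all embryos of one pregnant mouse were pooled for an isolation, so a replicate is a culture from pooled embryos and not a single animal. The libraries are called by dose, time and replicate number, from 1 to 4.

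The transcription factor p53 is stabilized when kinases such as ATM report DNA damage, and it then switches on genes that halt the cell cycle, trigger apoptosis, repair DNA or limit oxidative stress. The p53 response of some repair genes, *Ddb2* among them, is known to differ between human and mouse cells. *Xpc* encodes the sensor of helix-distorting lesions in nucleotide excision repair, *Ddb2* the subunit of the UV-damaged DNA binding complex that hands lesions over to it, and *Ercc5* (XPG) the endonuclease that cuts 3′ of the lesion. *Polh* and *Polk* encode the translesion polymerases eta and kappa, which copy past damaged bases. *Rrm2b* encodes the p53-inducible small subunit of ribonucleotide reductase, which supplies deoxynucleotides outside S phase. *Sesn1* encodes sestrin 1, a stress protein that restrains mTORC1, and *Tigar* a phosphatase that lowers fructose-2,6-bisphosphate and so directs glucose into the pentose phosphate pathway.

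In the GRCm38 build, to which the deposited coordinates belong, *Xpc* (ENSMUSG00000030094) lies at chr6:91489305-91515888 on the minus strand, *Ddb2* (ENSMUSG00000002109) at chr2:91211572-91236982 on the minus strand and *Ercc5* (ENSMUSG00000026048) at chr1:44147744-44181260 on the plus strand. *Polh* (ENSMUSG00000023953) lies at chr17:46172004-46202625 on the minus strand and *Polk* (ENSMUSG00000021668) at chr13:96480689-96542485 on the minus strand. *Rrm2b* (ENSMUSG00000022292) is at chr15:37923952-37961318 on the minus strand, *Sesn1* (ENSMUSG00000038332) at chr10:41809935-41908424 on the plus strand and *Tigar* (ENSMUSG00000038028) at chr6:127085116-127109557 on the minus strand. Reads were counted over whole genes, with all annotated exons. The exons of *Ddb2* overlap those of *Acp2* on the opposite strand over 652 bp, and those of *Tigar* overlap *Platr31* over 122 bp. Whether the counting used strand is not given in the sources used here, and the counts of *Ddb2* and *Tigar* may hold reads of these neighbours.

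The 250 bases before annotated starts of *Ercc5* and *Polk* are shown because these were the members with the highest fold changes 6 h after 2 Gy, and those of *Sesn1* because this window holds a p53 half-site. The windows come from RefSeq for GRCm38.p6 and are written 5′ to 3′ on the strand of the gene. They are chr1:44147494-44147743 (plus) for *Ercc5*, chr13:96542580-96542829 (minus) and chr13:96519188-96519437 (minus) for the upstream and the downstream start of *Polk*, and chr10:41887189-41887438 (plus) for the downstream start of *Sesn1*. Capitals mark a match to the 10-base p53 half-site, searched on both strands.
Ercc5: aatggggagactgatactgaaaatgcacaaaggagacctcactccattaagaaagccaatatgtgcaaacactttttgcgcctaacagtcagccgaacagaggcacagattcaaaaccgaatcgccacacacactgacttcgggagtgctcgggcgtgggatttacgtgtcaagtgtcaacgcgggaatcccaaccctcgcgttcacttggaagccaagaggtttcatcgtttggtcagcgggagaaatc
Polk, upstream start: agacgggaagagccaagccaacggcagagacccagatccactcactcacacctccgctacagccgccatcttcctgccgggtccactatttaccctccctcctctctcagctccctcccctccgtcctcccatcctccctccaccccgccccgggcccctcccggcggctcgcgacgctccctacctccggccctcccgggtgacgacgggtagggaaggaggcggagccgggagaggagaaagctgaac
Polk, downstream start: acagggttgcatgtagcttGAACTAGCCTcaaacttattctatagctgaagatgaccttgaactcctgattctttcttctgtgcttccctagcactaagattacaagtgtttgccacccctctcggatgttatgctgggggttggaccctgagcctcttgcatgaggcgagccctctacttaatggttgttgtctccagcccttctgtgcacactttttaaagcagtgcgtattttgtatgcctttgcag
Sesn1, downstream start: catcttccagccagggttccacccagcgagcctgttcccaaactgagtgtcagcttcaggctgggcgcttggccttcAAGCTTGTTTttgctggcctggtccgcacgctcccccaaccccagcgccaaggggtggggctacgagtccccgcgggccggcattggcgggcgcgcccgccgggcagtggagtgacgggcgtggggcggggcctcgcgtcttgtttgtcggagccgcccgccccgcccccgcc
Of 7 windows in the table for 5 of the genes, 2 held a half-site, compared with 7.13% of all 32851 windows of this length. The match began 231 bases before the downstream start of *Polk* and 173 bases before the downstream start of *Sesn1*. The windows of *Tigar*, *Polh*, the upstream start of *Sesn1*, *Ercc5* and the upstream start of *Polk* held no such match in these letters. A match is a description of the sequence and not a binding site, and the nucleotides further away were not searched.

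Each library held between 14742855 and 38194800 counts, and the 8 genes had 31 to 2756 counts in a library, with the lowest numbers in *Ddb2*. Values of single libraries are CPM, counts scaled to library sizes after TMM normalization, and comparisons between genes use RPKM, which divides CPM by the exon length. All 12 astrocyte markers were expressed, with a summed level of 2591 to 3692 CPM per library. The 16 neuronal markers summed to 451 to 776 CPM, mostly from *Stmn2*, *Map2* and *Tubb3* (medians of 209, 189 and 55.7 CPM), whereas 8 of them, among them *Neurod6* and *Slc17a6*, had medians under 1 CPM. The summed level of 14 microglial markers was 353 to 420 CPM in the 6 libraries of replicate 2 and 2039 to 3501 CPM in the other 18. The 14 fibroblast and vessel markers summed to 3539 to 7858 CPM, mostly from *Acta2*, and 5 of them, *Dcn* and *Lum* included, had medians under 1 CPM. Libraries of one replicate number deviated together from their group means at each time (correlations over genes of 0.540 to 0.927). The numbers were therefore treated as pairs within a time, and each result is also given from an edgeR fit blocked on the replicate number where the call or a count changed. In bulk RNA a smaller number of cells of one type and less RNA per cell cannot be told apart.

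Per exon length, *Sesn1* was the most abundant of the 8 genes, with a median of 14.3 RPKM over the 24 libraries. *Polk* followed with 9.57 RPKM, and *Polh* (6.95), *Rrm2b* (6.36), *Ercc5* (6.18) and *Tigar* (5.88 RPKM) had ranges that overlapped each other and that of *Polk*. *Xpc* had 3.51 RPKM, and *Ddb2* was lowest with 0.979 RPKM and a range of 0.590 to 1.70 RPKM that reached the range of only 1 other gene, *Rrm2b*, whose lowest library had 1.66 RPKM. The spread between libraries also differed between the genes. The highest library exceeded the lowest by 5.35-fold for *Rrm2b* and 5.12-fold for *Polk*, but only by 1.84-fold for *Xpc*.

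**Figure D1:**
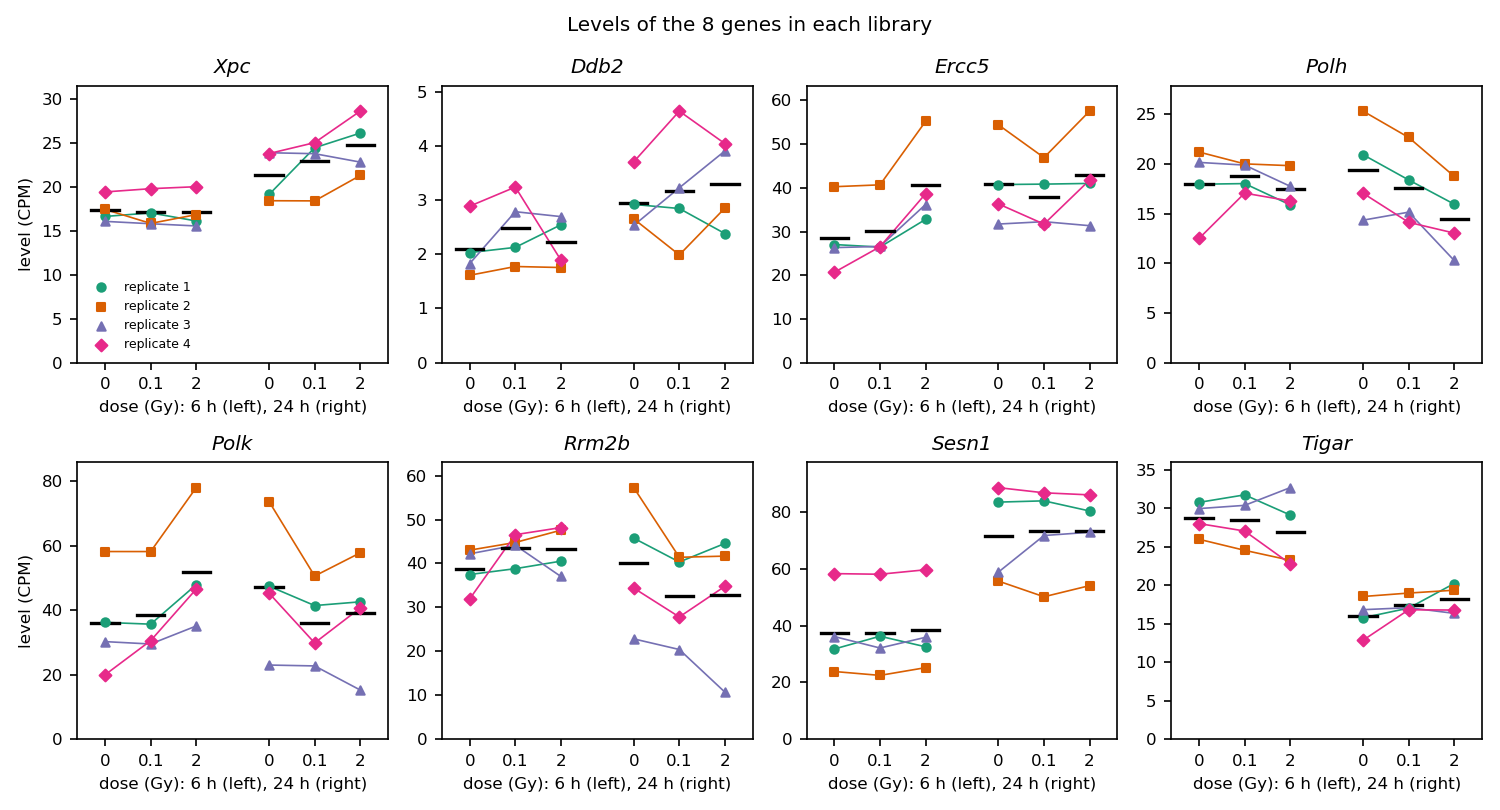
Level (CPM, vertical axes from 0) of each gene in the 24 libraries by dose (Gy), 6 h on the left and 24 h on the right of each panel. Points and colours are replicate numbers, lines join libraries of one number within a time and black bars are group means of 4 libraries. *Polk* of replicate 2 is the top point in all 6 groups (50.6 to 78.0 CPM), and all 12 points of *Tigar* at 24 h lie below the 12 at 6 h.

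Part of this spread followed the replicate number. Replicate 2 had the highest *Ercc5*, *Polh* and *Polk* in 6 of 6 groups, a pattern shown by 10.8% of the 17353 genes. *Sesn1* had the opposite order, with replicate 2 lowest in 6 of 6 groups (12.2% of all genes) and replicate 4 highest in 6 of 6 (1.86% of all genes). *Xpc* and *Ddb2* were highest in replicate 4 in 5 of the 6 groups. Replicate 2 was also the number with low microglial markers, with the highest neuronal marker sums (659 to 776 CPM, against 451 to 610 CPM in the others), with the highest median of the oligodendrocyte lineage marker sum (823 CPM, against 480 to 592 CPM) and with the lowest median of the astrocyte marker sum (2791 CPM, against 3042 to 3625 CPM). Of the 12 oligodendrocyte lineage markers 5, *Sox10* among them, had medians under 1 CPM, and *Olig1* had the highest median (315 CPM). The part of cell types in the order of the replicates was not tested.

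Among the nucleotide excision repair genes, *Ercc5* had the clearest difference between doses. At 6 h its levels in replicates 1 to 4 were 27.0, 40.3, 26.3 and 20.7 CPM after 0 Gy, 26.4, 40.7, 26.6 and 26.5 CPM after 0.1 Gy, and 32.8, 55.2, 36.2 and 38.6 CPM after 2 Gy. Replicate 2 of the 0 Gy group was above 3 of the 4 libraries exposed to 2 Gy, so the groups overlapped, but within each replicate number the 2 Gy culture was the higher, by 1.21, 1.37, 1.37 and 1.87-fold. The ratio of group means was 1.42, and an exact two-sided permutation test that ignores the pairs gave p = 0.114, where the smallest p that 4 against 4 libraries allow is 0.0286. In the unpaired edgeR fit over all genes the log2 fold change was 0.51 ± 0.23 (SE) with an adjusted p of 1.00. With the replicate number as a block it was 0.52 ± 0.11 (edgeR adjusted p = 0.264), and after a further correction for the GC content and length of each gene's exons it was 0.46 ± 0.07 (edgeR adjusted p = 0.020). Only in the last of these fits did *Ercc5* pass the threshold of 0.05.

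The same size of difference was seen when 2 Gy was set against 0.1 Gy at 6 h, a comparison that shares the 2 Gy libraries with the former. The pair ratios of *Ercc5* were 1.24, 1.36, 1.36 and 1.46, and the log2 fold change was 0.44 ± 0.21 in the unpaired fit (edgeR adjusted p = 1.00), 0.43 ± 0.08 with the block (edgeR adjusted p = 0.091) and 0.43 ± 0.06 with block and correction (edgeR adjusted p = 0.005). At 24 h *Ercc5* had 40.8, 54.4, 31.7 and 36.3 CPM after 0 Gy and 41.0, 57.6, 31.3 and 41.8 CPM after 2 Gy. These values almost coincided within a replicate number, with pair ratios of 0.988 to 1.15 and a log2 fold change of 0.08 ± 0.24 (edgeR adjusted p = 0.965). The 0 Gy cultures themselves had 1.43-fold more *Ercc5* at 24 h than at 6 h in the group means.

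*Xpc*, the damage sensor, had nearly the same level at each dose 6 h after irradiation. Its means were 17.4 ± 1.47, 17.1 ± 1.88 and 17.2 ± 2.00 CPM (SD, n = 4) at 0, 0.1 and 2 Gy, and the pair ratios of 2 Gy to 0 Gy were 0.969, 0.966, 0.968 and 1.03. At 24 h the levels were 19.2, 18.5, 23.9 and 23.8 CPM after 0 Gy and 26.2, 21.3, 22.9 and 28.7 CPM after 2 Gy. The 2 Gy culture was higher in replicates 1, 2 and 4, by 1.37, 1.16 and 1.20-fold, and lower in replicate 3 with a ratio of 0.955. The log2 fold change was 0.22 ± 0.17 (edgeR adjusted p = 0.940; exact permutation p = 0.200).

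*Ddb2* had the lowest counts of the 8 genes. Its group means were 2.09 ± 0.559, 2.48 ± 0.658 and 2.22 ± 0.467 CPM (SD, n = 4) at 6 h, and 2.96 ± 0.528, 3.18 ± 1.11 and 3.30 ± 0.810 CPM at 24 h, at 0, 0.1 and 2 Gy. The pair ratios of 2 Gy to 0 Gy ran from 0.655 to 1.47 at 6 h and from 0.816 to 1.54 at 24 h, with pairs on both sides of 1 at each time. The groups overlapped throughout, and a change of this gene with dose was not detectable in these libraries.

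The translesion polymerases had different patterns. *Polk* at 6 h had 36.2, 58.2, 30.2 and 19.9 CPM after 0 Gy, 35.7, 58.2, 29.5 and 30.5 CPM after 0.1 Gy, and 47.9, 78.0, 35.1 and 46.5 CPM after 2 Gy. The 2 Gy culture was the highest of its number in 4 of 4 replicates, with ratios to 0 Gy of 1.32, 1.34, 1.16 and 2.33, while the groups overlapped. The ratios of 0.1 Gy to 0 Gy were close to 1 in replicates 1 to 3 and 1.53 in replicate 4. The log2 fold change of 2 Gy against 0 Gy was 0.52 ± 0.34 (edgeR adjusted p = 1.00; exact permutation p = 0.257), with the block 0.55 ± 0.15 (edgeR adjusted p = 0.494) and with block and GC and length correction 0.45 ± 0.09 (edgeR adjusted p = 0.064). Against 0.1 Gy the pair ratios were 1.34, 1.34, 1.19 and 1.52, and the log2 fold change was 0.43 ± 0.29 in the unpaired fit (edgeR adjusted p = 1.00) and 0.40 ± 0.06 in the blocked and corrected one, where it was called (edgeR adjusted p = 0.005).

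At 24 h *Polk* had 47.4, 73.7, 23.0 and 45.3 CPM after 0 Gy, 41.4, 50.6, 22.7 and 29.8 CPM after 0.1 Gy, and 42.6, 57.8, 15.2 and 40.7 CPM after 2 Gy. Now the 0 Gy culture was the highest in each of the 4 numbers, and the ratios of 2 Gy to 0 Gy were 0.898, 0.784, 0.663 and 0.898. Within 0.1 Gy against 0 Gy they were 0.873, 0.687, 0.988 and 0.659. The log2 fold changes were -0.27 ± 0.43 for 2 Gy (edgeR adjusted p = 0.941) and -0.40 ± 0.36 for 0.1 Gy (edgeR adjusted p = 0.943), and both comparisons share the 0 Gy libraries. When a library was left out of the unpaired fit, the 2 Gy value ranged from -0.52 to 0.028. The ratio of 2 Gy to 0 Gy thus lay above 1 at 6 h and below 1 at 24 h in every replicate number. Taken alone, the former held for 8.77% of all genes and the latter for 21.9%. The interaction of 2 Gy and time was -0.78 ± 0.58 on the log2 scale in the unpaired fit (edgeR adjusted p = 0.819), -0.85 ± 0.20 with the replicate block within each time (edgeR adjusted p = 0.040) and -0.53 ± 0.14 with the block and the correction (edgeR adjusted p = 0.074). The fit with the block alone called 6.78% of all genes in the interaction.

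*Polh* had similar levels at 6 h, 17.9 ± 3.87, 18.7 ± 1.44 and 17.4 ± 1.79 CPM (SD, n = 4) at 0, 0.1 and 2 Gy. At 24 h it had 20.9, 25.3, 14.3 and 17.0 CPM after 0 Gy, 18.4, 22.7, 15.1 and 14.1 CPM after 0.1 Gy, and 15.9, 18.7, 10.3 and 13.0 CPM after 2 Gy. The 2 Gy culture was the lowest in every replicate number, and the ratios to 0 Gy were almost equal, 0.762, 0.741, 0.717 and 0.765, although the groups overlapped. The unpaired log2 fold change was -0.42 ± 0.26 (edgeR adjusted p = 0.940; exact permutation p = 0.171). With the block its error was 0.10 and the adjusted p 0.028, so that *Polh* was the 1 member that fell after 2 Gy at 24 h in this fit. With the GC and length correction the log2 fold change was -0.36 ± 0.09 and the call was lost (edgeR adjusted p = 0.077). The blocked call was also lost when replicate number 1, 2 or 4 was left out, with edgeR adjusted p-values of 0.117, 0.149 and 0.102, in fits that called 0.892%, 0.432% and 1.54% of all genes.

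*Rrm2b* at 6 h had means of 38.7 ± 5.10, 43.6 ± 3.33 and 43.3 ± 5.44 CPM (SD, n = 4), and its pair ratios of 2 Gy to 0 Gy were 1.08, 1.11, 0.878 and 1.51. At 24 h its levels were 45.8, 57.3, 22.8 and 34.4 CPM after 0 Gy, 40.3, 41.4, 20.4 and 27.8 CPM after 0.1 Gy, and 44.6, 41.7, 10.7 and 34.8 CPM after 2 Gy. The 0.1 Gy culture was the lower in 4 of 4 numbers, whereas the 2 Gy culture was lower in replicates 2 and 3 and close to 0 Gy in replicates 1 and 4, with ratios of 0.974 and 1.01. The library of replicate 3 after 2 Gy had the lowest *Rrm2b* of all 24. The log2 fold change was -0.28 ± 0.44 for 2 Gy (edgeR adjusted p = 0.940) and -0.31 ± 0.32 for 0.1 Gy (edgeR adjusted p = 0.943), and with the block and the GC and length correction these values were -0.03 and 0.00. The sign of the 0.1 Gy value thus depended on the correction. That of the unpaired 2 Gy value depended on the 2 Gy library of replicate 3, without which the value was 0.024.

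Of the redox genes, *Sesn1* did not separate the doses at either time. At 6 h it had 31.8, 23.8, 36.2 and 58.4 CPM after 0 Gy and 32.6, 25.2, 35.9 and 59.7 CPM after 2 Gy. The cultures of one number were almost identical, with ratios of 1.02, 1.06, 0.993 and 1.02 and a log2 fold change of 0.03 ± 0.33 (edgeR adjusted p = 1.00). At 24 h the means were 71.7 ± 16.8, 73.2 ± 16.7 and 73.4 ± 14.0 CPM (SD, n = 4) at 0, 0.1 and 2 Gy. The pair ratios of 2 Gy to 0 Gy were then 0.963, 0.971, 1.24 and 0.971.

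*Sesn1* had higher levels at the later time at each dose. The 0 Gy cultures had 83.6, 55.7, 58.9 and 88.7 CPM at 24 h, 1.91-fold the mean at 6 h, and of these only replicate 2 lay below the highest value of the 0 Gy cultures at 6 h (58.4 CPM). The log2 fold change was 0.92 ± 0.28 in the unpaired fit, short of the threshold (edgeR adjusted p = 0.0831; exact permutation p = 0.057). It was called by DESeq2 (adjusted p = 0.0270) and in the edgeR fit of all 24 libraries (adjusted p = 0.0433). These fits called 1972 of 29955 and 2488 of 17353 genes tested. Over all doses the ranges were 22.5 to 59.7 CPM at 6 h and 50.2 to 88.7 CPM at 24 h.

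*Tigar* went the opposite way. Its levels after 0 Gy were 30.8, 26.0, 30.0 and 28.0 CPM at 6 h and 15.8, 18.5, 16.8 and 12.9 CPM at 24 h, and the groups were apart. *Tigar* fell with time by 0.86 ± 0.15 on the log2 scale (edgeR adjusted p = 0.0158), to 0.558 of the mean at 6 h. It was the 1 member called among 6.70% of all genes in this comparison, and 7.44% of all genes had 0 Gy groups that were apart and lower at 24 h. Over all doses *Tigar* ranged from 22.8 to 32.7 CPM at 6 h and from 12.9 to 20.2 CPM at 24 h, again without overlap, as did 2.65% of all genes in this direction. The exact permutation p of *Tigar* at 0 Gy was the smallest possible, and after adjustment over the 56 exact tests made on the 8 genes the lowest value was 0.914. The call was lost when replicate 1 or 3 of the 6 h group or replicate 1 or 4 of the 24 h group was left out, with edgeR adjusted p-values of 0.0808, 0.0562, 0.0718 and 0.0580. As the study's methods state, the 0 Gy cultures were mock-irradiated with the X-ray source off, so their comparison between the times holds no effect of dose. The time since mock irradiation and the time in culture cannot be told apart in it. Of the pathway lists the unpaired fit called 2 of 15 other translesion genes (*Hltf* and *Ube2b*, higher at 24 h), 2 of the 21 redox genes that could be tested and 1 of 22 other p53 targets (*Gdf15*, lower), which are named here after their values were seen. It called 0 of 29 other excision repair genes, 0 of 12 deoxynucleotide supply genes and 0 of 8 genes of the p53 circuit, beside 6.70% of all genes. The redox genes were *Sesn3*, the third sestrin (1.17, edgeR adjusted p = 0.0185), and *Rpia*, an enzyme of the pentose phosphate pathway (-0.91, edgeR adjusted p = 0.0315).

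After 2 Gy *Tigar* had 29.1, 23.3, 32.7 and 22.8 CPM at 6 h, above 0 Gy in replicate 3 and below it in the other numbers. At 24 h after 2 Gy it had 20.2, 19.4, 16.4 and 16.8 CPM, with ratios to 0 Gy of 1.28, 1.04, 0.972 and 1.31. The groups overlapped at both times, and the log2 fold change at 24 h was 0.19 ± 0.18 (edgeR adjusted p = 0.940; exact permutation p = 0.200). At 0.1 Gy and 24 h the pair ratios were all above 1, from 1.02 to 1.31.

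**Figure D2:**
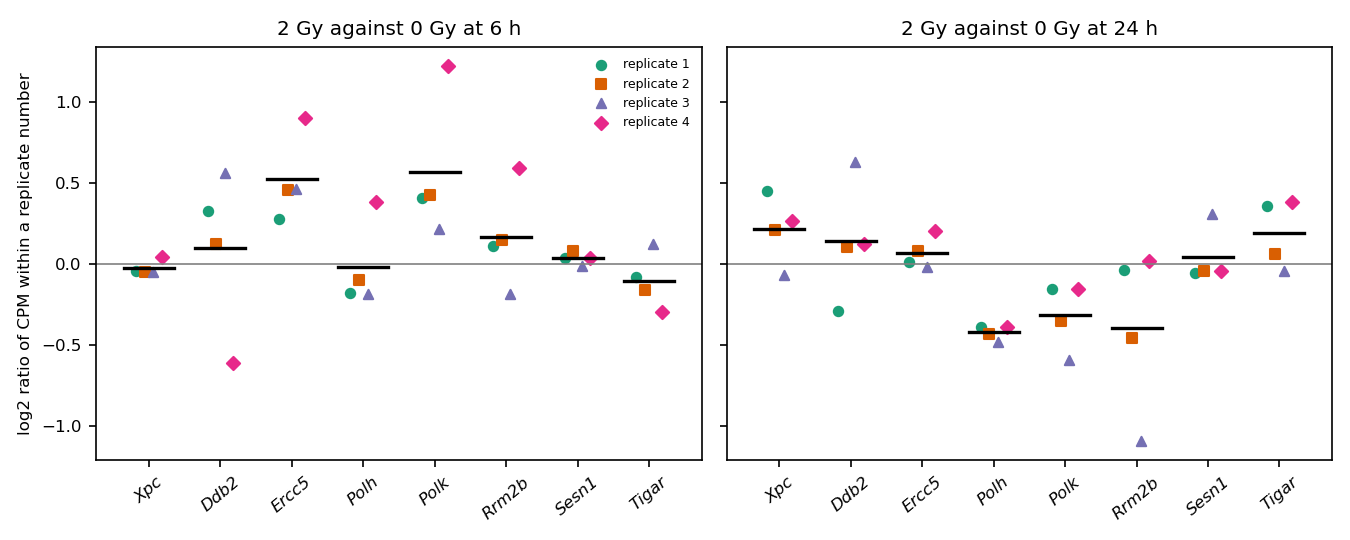
Log2 ratio of CPM, 2 Gy against 0 Gy, within each replicate number for the 8 genes at 6 h (left) and 24 h (right); points are replicate numbers and bars the mean of the 4 ratios. At 6 h the points of *Ercc5* and *Polk* all lie above 0, and at 24 h those of *Polk* and *Polh* all lie below it.

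Across the 8 genes, the unpaired fit called 0 members in any comparison of doses. The log2 fold changes of 2 Gy against 0 Gy ran from -0.09 to 0.52 at 6 h with a median of 0.06 (all genes -0.00), and from -0.42 to 0.22 at 24 h with a median of 0.06 (all genes 0.01). For 0.1 Gy they ran from -0.02 to 0.25 at 6 h and from -0.40 to 0.12 at 24 h. At an unadjusted p below 0.05 the unpaired edgeR fit held 0 members in each of these comparisons, beside 24 of all genes for 0.1 Gy at 6 h, 241 for 0.1 Gy at 24 h, 215 for 2 Gy at 6 h and 570 for 2 Gy at 24 h. The background was equally empty, since the unpaired fit called 0.00% of all genes in each comparison of doses, and DESeq2 called 0 members and 0, 0, 1 and 100 genes in the same order.

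With the replicate block, 1 of the 8 genes (*Polh*) was called at 24 h after 2 Gy, where this fit called 13.2% of all genes, 6.53% as higher and 6.69% as lower. With the correction it called 0 members and 2.85% of all genes. At 6 h the block alone called 0.00% of all genes, and with the GC and length correction it called *Ercc5* and 0.971% of all genes, 0.758% as higher. For 2 Gy against 0.1 Gy at 6 h the blocked fit with the correction called *Ercc5* and *Polk*, both as higher, and 0.807% of all genes (0.647% as higher and 0.160% as lower). The block alone called 0 members and 0.0553% of all genes. The blocked interaction called *Polk* and 6.78% of all genes. For 0.1 Gy against 0 Gy the blocked fit called 0 members at either time, beside 0.00% of all genes at 6 h and 6.84% at 24 h (2.34% as higher and 4.50% as lower), and with the correction 0 members and 1.48% of all genes at 24 h.

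Shared direction in the pairs can be read against the same background. Higher in 4 of 4 pairs after 2 Gy at 6 h were 2 members, *Ercc5* and *Polk*, and 8.77% of all genes. Lower in 4 of 4 pairs at 24 h were 2 members, *Polh* and *Polk*, and 21.9% of all genes, so this count is near the background. For 0.1 Gy at 24 h *Polk* and *Rrm2b* were lower (16.2% of all genes) and *Tigar* higher (16.3%) in 4 of 4 pairs, and for 0.1 Gy at 6 h *Ddb2* and *Rrm2b* were higher (7.57%).

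**Figure D3:**
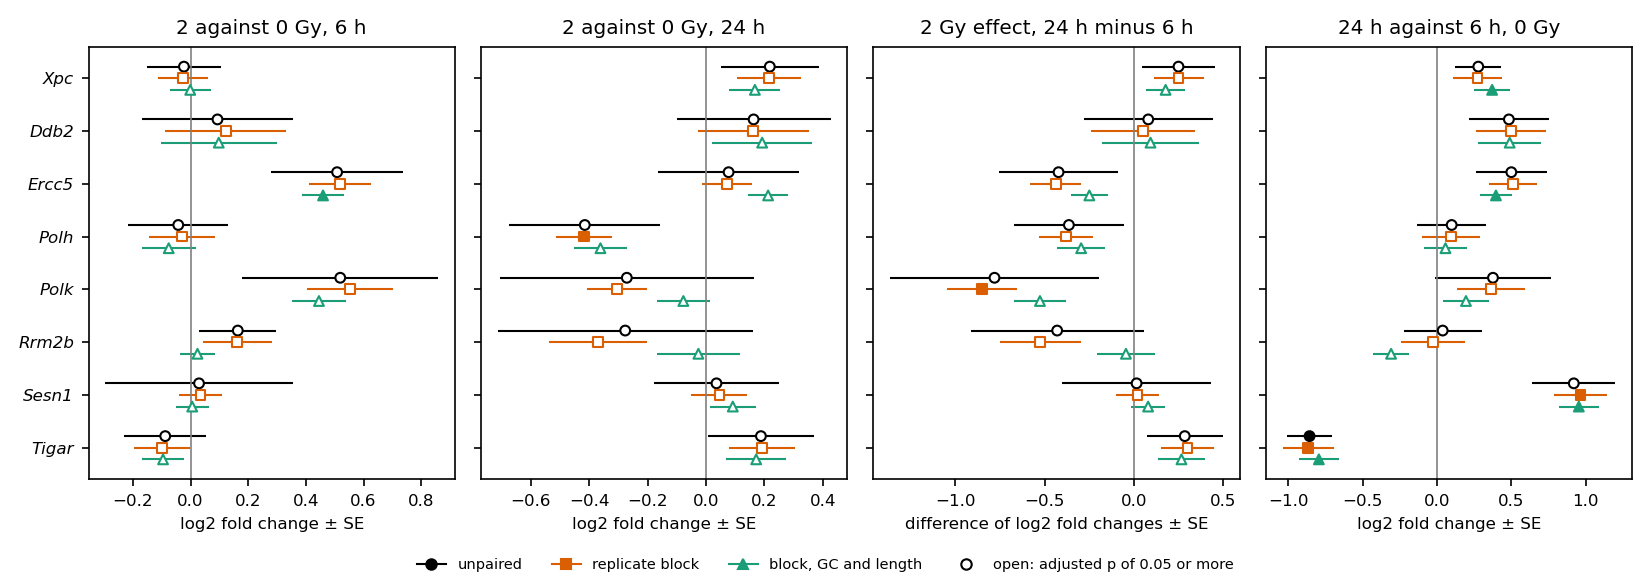
Log2 fold change ± SE of the 8 genes in 4 comparisons from the unpaired fit, the fit with the replicate block and the blocked fit with GC and length correction; filled symbols have an adjusted p under 0.05. Filled symbols appear for *Ercc5* at 6 h, *Polh* at 24 h and *Polk* in the interaction. Between the times they appear for *Tigar*, *Sesn1*, *Ercc5* and *Xpc*. There the replicate numbers were not taken as pairs, and the fits, in the order named, called 6.70%, 15.3% and 27.6% of all genes.

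The calls of the blocked comparisons of 2 Gy and of 0.1 Gy with 0 Gy changed when single replicate numbers were left out, at 6 h for 2 Gy and at 24 h for both doses. Replicate 4 held the largest ratio of *Ercc5* (1.87) and *Polk* (2.33) at 6 h, and its 0 Gy library had the lowest level of both genes among the 24 libraries for *Ercc5* and among the 6 h libraries for *Polk*. In fits added after the data had been seen, without replicate 4 the block gave a smaller log2 fold change with a smaller error, 0.40 for *Ercc5* (edgeR adjusted p = 0.0253) and 0.36 for *Polk* (edgeR adjusted p = 0.0342), and both rose by this test, in which 0.799% of all genes were called. Without replicate 3 at 24 h, *Polh* (-0.39, adjusted p = 0.0041) and *Polk* (-0.21, 0.0383) fell, and *Xpc* (0.32, 0.0139) and *Tigar* (0.27, 0.0479) rose in the blocked edgeR fit, which makes 4 members instead of 1, but this fit also called 33.1% of all genes, against 13.2% with all replicates and 0.432% to 1.54% without replicate 1, 2 or 4, where 0 members were called. For 0.1 Gy at 24 h, *Polk* (-0.45, 0.0095) and *Rrm2b* (-0.33, 0.0294) fell when replicate 3 was left out, in a fit that called 23.2% of all genes and 11.8% as lower, against 6.84% called with all replicates. Without replicate 1, 2 or 4 this comparison called 0 members and 7.18%, 0.130% and 0.0987% of all genes.

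The base composition of the libraries also differed within the pairs. A balance was formed for each library as the mean centred log2 level of genes with exon GC content at or below 45.4% (the lower quartile) minus that of genes at or above 54.6%. From 0 Gy to 2 Gy it changed by 0.0065, 0.261, -0.138 and 0.703 in replicates 1 to 4 at 6 h, and by -0.562, -0.741, -0.397 and -0.300 at 24 h. Replicate 4 at 6 h, the pair with the largest *Polk* ratio, had the largest shift to AT-rich genes, and at 24 h all pairs shifted to GC-rich genes. At 24 h the largest shift was that of replicate 2, and *Polk* and *Rrm2b* had their lowest ratios (0.663 and 0.469) in replicate 3. *Rrm2b* and *Polk* have the lowest exon GC content of the 8 genes (41.2% and 43.2%), and *Xpc* (53.2%) and *Tigar* (50.5%) the highest. In the blocked fit at 24 h the GC and length correction changed the log2 fold change of *Rrm2b* from -0.37 to -0.03, that of *Polk* from -0.30 to -0.08 and that of *Polh* from -0.42 to -0.36. The part of base composition in the levels was not tested beyond this correction.

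**Figure D4:**
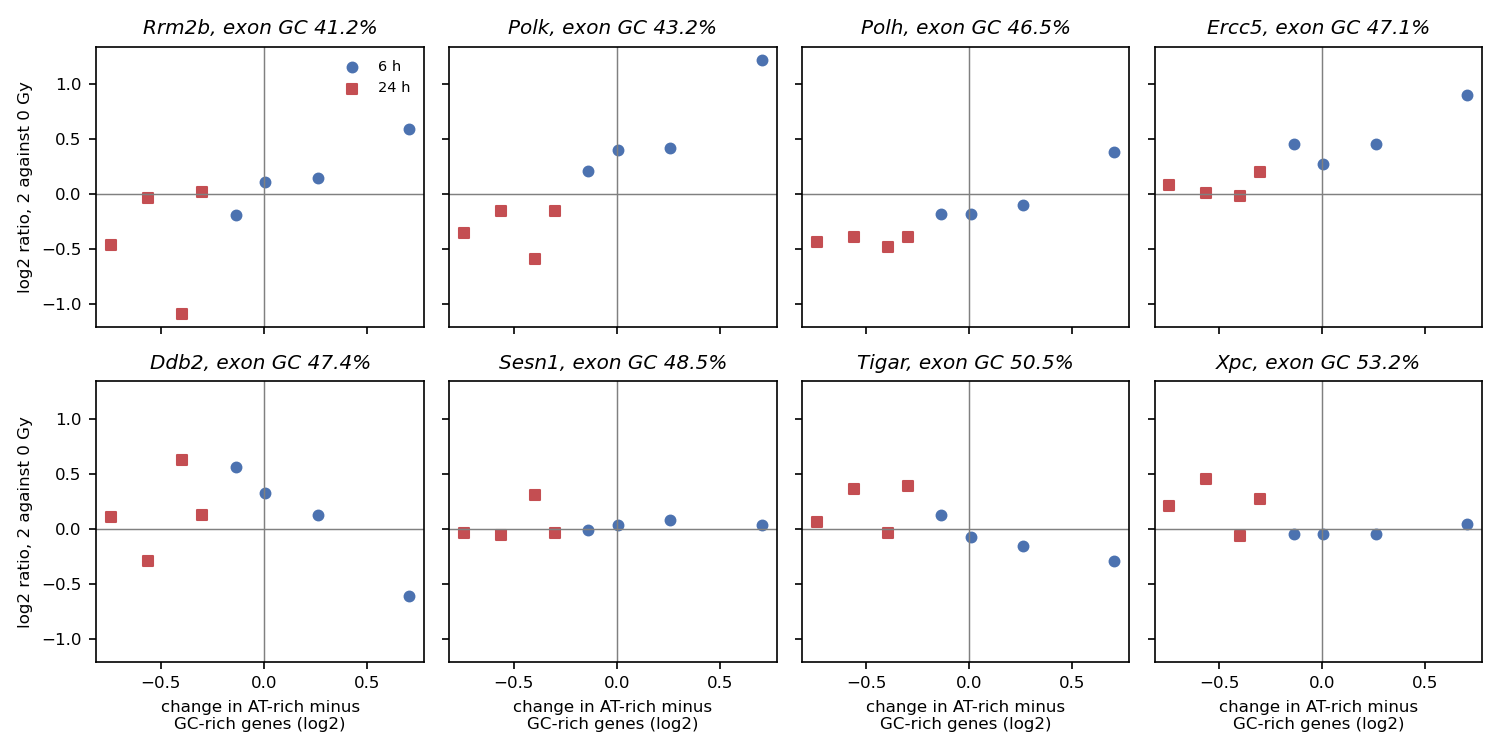
Log2 ratio of 2 Gy to 0 Gy of each gene (vertical axis) against the change in the balance of AT-rich and GC-rich genes of the same pair of libraries (horizontal axis, log2), with 4 pairs at 6 h (circles) and 4 at 24 h (squares); panels are ordered by exon GC content. *Rrm2b*, *Polk*, *Polh* and *Ercc5* are highest, and *Ddb2* and *Tigar* lowest, in the pair whose balance rose by 0.703, and *Polk* and *Ercc5* are above 0 also in the pair at 6 h whose balance fell by 0.138.

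The p53 gene itself and its best known targets give the setting. *Trp53* had 98.7, 97.7, 99.0 and 107 CPM after 0 Gy and 101, 108, 105 and 87.8 CPM after 2 Gy at 6 h, so its mRNA did not separate the doses. *Mdm2*, which encodes the ligase that degrades p53, had 152, 222, 140 and 116 CPM after 0 Gy and 231, 309, 213 and 230 CPM after 2 Gy at 6 h, with every pair higher. *Cdkn1a*, the p21 inhibitor of cyclin-dependent kinases, had 346, 560, 281 and 298 CPM after 0 Gy and 611, 738, 528 and 436 CPM after 2 Gy. In the blocked fit with GC and length correction the log2 fold changes at 6 h were 0.73 for *Cdkn1a* (edgeR adjusted p = 0.00335), 0.61 for *Mdm2* and 0.59 for *Ccng1* (both edgeR adjusted p = 0.00396), compared with 0.46 for *Ercc5*. These genes were called neither in the unpaired nor in the blocked fit at 6 h. At 24 h *Mdm2* had 204, 309, 169 and 190 CPM after 0 Gy and 220, 275, 119 and 214 CPM after 2 Gy. *Ccng1* had 1090, 1166, 459 and 834 CPM after 0 Gy and 1048, 1031, 539 and 936 CPM after 2 Gy. Both genes then had pairs in both directions.

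Of 22 p53 targets of arrest, feedback and apoptosis, 20 had a positive log2 fold change after 2 Gy at 6 h, with a median of 0.36, beside 49.6% of all genes. The blocked and corrected fit called 12 of them, all higher, against 0.971% of all genes (0.758% as higher), with *Trp53inp1* at 0.82 and *Eda2r* at 0.72 on the log2 scale. Among the 8 genes studied here this share was 1 of 8 and the median 0.06. At 24 h 20 of the 22 were again positive, with a median of 0.22, beside 51.3% of all genes, and the blocked fit called 9 of them, all higher, against 13.2% of all genes (6.53% as higher), namely *Bbc3* (Puma) at 0.98, *Bax* at 0.82, *Phlda3* at 0.77, *Gdf15* at 0.69, *Btg2* at 0.61, *Cdkn1a* at 0.57, *Psrc1* at 0.51, *Aen* at 0.49 and *Ei24* at 0.32. With the correction it called 6 of the 22, all higher, against 2.85% of all genes (1.32% as higher). For 0.1 Gy at 24 h the blocked fit called *Bbc3* (0.69), *Bax* (0.61) and *Phlda3* (0.42) as higher and *Trp53inp1* (-0.47) and *Eda2r* (-0.37) as lower, where 2.34% of all genes were called as higher and 4.50% as lower.

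Few partners of the 8 genes in their own pathways were called at 6 h, where the blocked and corrected fit called 0.758% of all genes as higher and 0.213% as lower. The blocked and corrected fit called 1 of 29 other nucleotide excision repair genes (*Lig1*, lower), 0 of 15 other translesion synthesis genes, 0 of 12 other deoxynucleotide supply genes and 1 of the 22 redox genes that could be tested, *Sesn2*, the stress-inducible paralog of *Sesn1*, which rose by 0.65 on the log2 scale (edgeR adjusted p = 0.00351). The medians of these lists lay between -0.02 and 0.10 in the unpaired fit.

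At 24 h after 2 Gy the blocked fit called 5 of 15 other translesion synthesis genes, all lower, against 13.2% of all genes called and 6.69% as lower. The list median in the unpaired fit was -0.30 (all genes 0.01), with 14 of 15 negative, while 51.3% of all genes were positive. The genes called were the polymerase theta gene *Polq* (-1.19), the deubiquitinase gene *Usp1* (-0.85), *Rad18* (-0.78), which encodes the ligase that recruits translesion polymerases, *Rev3l* (-0.59), the catalytic subunit of polymerase zeta, and the sliding clamp gene *Pcna* (-0.54). *Polh*, with -0.42, moved in the same direction. Of 12 other deoxynucleotide supply genes 4 fell, namely *Rrm2* (-1.09), the S-phase partner subunit, *Tyms* (-0.72), *Tk1* (-0.70) and *Rrm1* (-0.63), and *Tk2*, the mitochondrial thymidine kinase gene, rose (0.34), beside the same background of 6.69% lower and 6.53% higher. *Rrm2b* was not called beside them (edgeR adjusted p = 0.163).

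Of 29 other nucleotide excision repair genes 4 fell at 24 h, *Lig1* (-0.53), *Cul4b* (-0.46), *Rpa2* (-0.41) and *Gtf2h1* (-0.31). In the unpaired fit 18 of 29 were negative, while 51.3% of all genes were positive. The blocked fit called 6.69% of all genes as lower. *Lig1* and *Rpa2* also act at the replication fork. In the redox list 5 genes rose (6.53% of all genes were called as higher), *Aldh4a1* (0.65), *Sesn2* (0.54), *Pgls* (0.52), *Taldo1* (0.45) and *Sod1* (0.44), of which *Pgls* and *Taldo1* encode enzymes of the pentose phosphate pathway. Of the p53 circuit the kinase genes *Chek1* (-1.06), *Atm* (-0.61) and *Atr* (-0.43) fell, 3 of 8 genes. For 0.1 Gy at 24 h the blocked fit called *Rev3l* (-0.59), *Rad18* (-0.45) and *Usp1* (-0.42) of the translesion list and *Cul4b* (-0.40) of the excision repair list as lower, *Sod1* (0.43) and *Aldh4a1* (0.38) of the redox list as higher, and *Atr* (-0.42) as lower, against 4.50% of all genes called as lower and 2.34% as higher, and that comparison shares the 0 Gy libraries with 2 Gy.

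With the GC and length correction the calls at 24 h were 3 of 15, all lower, for translesion synthesis, 3 of 12, all lower, for deoxynucleotide supply, 1 higher (*Gtf2h5*) and 2 lower (*Lig1* and *Rpa2*) of 29 for excision repair, 2 of 22, both higher, for redox, and 1 higher (*Mdm4*) and 1 lower (*Chek1*) of 8 for the p53 circuit, against 2.85% of all genes called (1.32% as higher and 1.53% as lower). *Mdm4* and *Gtf2h5* are named after their values were seen. Markers of proliferating cells were lower beside them. Their 16 genes summed to 706 to 812 CPM (median 729) after 0 Gy, 573 to 631 (median 599) after 0.1 Gy and 337 to 412 (median 361) after 2 Gy at 24 h, and 16 of 16 fell in the blocked fit (6.69% of all genes called as lower) and 16 of 16 also with the correction (1.53%). The part of this in the levels of *Polh* and of the replication-linked list members was not tested.

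**Figure D5:**
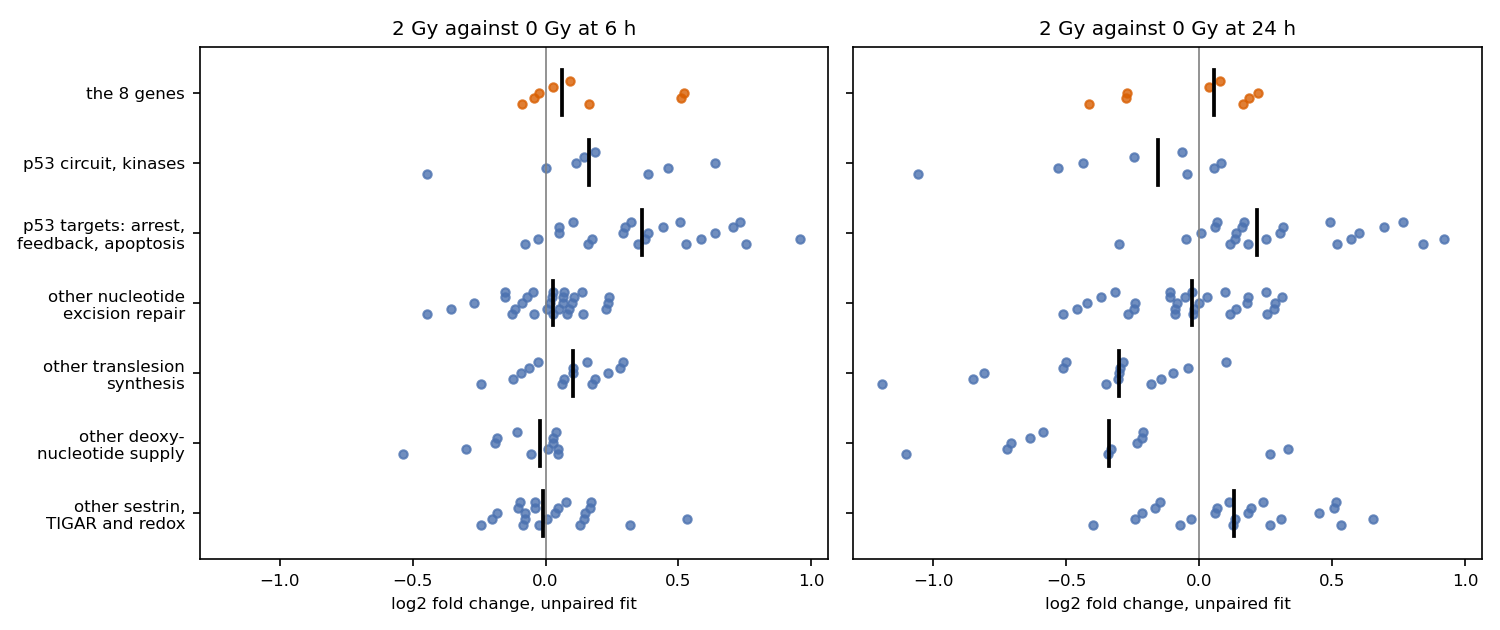
Log2 fold change of 2 Gy against 0 Gy in the unpaired fit for the 8 genes (orange) and for 6 gene lists (blue) at 6 h and 24 h; each point is a gene and black bars are list medians. The list of arrest, feedback and apoptosis targets lies to the right at both times (medians 0.36 and 0.22), and the translesion and deoxynucleotide lists lie to the left at 24 h (-0.30 and -0.34).

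The genes whose levels were most like those of each member were found from log2 CPM centred within time and replicate number, over 24 libraries that share 8 centring means. The neighbours of *Polh* were *Ncapg* (Pearson's r = 0.960), *Pola1* (0.958) and *Aspm* (0.946), which encode a condensin subunit, the catalytic subunit of DNA polymerase alpha and a spindle pole protein. *Ercc5* was closest to *Ano3* (0.937), *Slc19a2* (0.932) and the p53 target *Trp53inp1* (0.914). *Polk* was closest to *Mtmr10* (0.975), *Vcan* (0.960) and *Utp20* (0.957), and *Rrm2b* to *Pdlim5* (0.973), *B230219D22Rik* (0.970) and *Prkci* (0.964).

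The closest genes to *Tigar* were *Tvp23b* (0.934), *Rnf121* (0.890) and *Gm38158* (0.867). Weaker likeness was found for *Sesn1*, with *Kcnj16* (0.788), *Rars2* (0.784) and *Fmo5* (0.773), for *Xpc*, with *D2hgdh* (0.796), *Slc43a2* (0.789) and *Cdip1* (0.784), and for *Ddb2*, with *Trmt9b* (0.750), *Bend5* (0.747) and *Arhgap28* (0.734). Among the 8 genes the highest values were those of *Ercc5* with *Polk* (0.825), *Polk* with *Rrm2b* (0.752) and *Polh* with *Rrm2b* (0.730), and the lowest that of *Polk* with *Tigar* (-0.532). These correlations are descriptions with no test, and the libraries also differ in depth and base composition.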

How the data were processed

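RNA of 24 cultures was sequenced by GENEWIZ after poly(A) selection, in paired reads and in the same run, with RNA isolated on the same day. The tables deposited by the authors hold raw counts of reads for every gene, unnormalized, together with the exon length of each gene (another column, in bp). Per the labels the genome build was mm10. The aligner, the counting tool and the use of strand are not given in the sources used here. GC content was taken from GENCODE M21 transcripts.

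The tests ran in edgeR 4.0.16 under R 4.3.3 on the libraries of the groups compared (TMM normalization, filterByExpr, quasi-likelihood test, Benjamini-Hochberg adjustment over all genes tested, call at an adjusted p under 0.05), and the scripts were tested on simulated data. Of the 8 genes 8 passed the filter in each comparison. Replicate numbers were taken from the labels. Same-numbered libraries of one time deviated together, with each correlation above 0.1, and therefore pair the samples within a time. Between the times the correlations in replicates 1 to 4 were 0.410, 0.825, 0.0623 and 0.518. As that of replicate 3 lay below 0.1, the numbers were not taken as pairs there. Alternatives were the replicate block, also with splines of GC content and length (5 degrees of freedom), DESeq2 1.42.0 and its size factors, no filter, all 24 libraries in one fit, a minimum log2 fold change of 1 in size, and each library left out. Log2 CPM used a prior count of 2. Groups of 4 libraries were compared by exact permutation over the 35 divisions of 8 libraries.

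The 8 genes, the pathway lists and the tests were chosen with earlier results of these data known. Named are all 8 genes, members of the pathway lists called in the unpaired or blocked comparisons with 0 Gy, *Trp53*, *Mdm2*, *Cdkn1a* and *Ccng1*, and the 3 genes most like each member. In none of the 36 pairs of libraries within a group did counts agree within sampling noise (lowest chi-square per degree of freedom 25.9). The labels call the 4 libraries of a group biological repeats, and the paper states that fresh astrocytes were prepared per experiment. Which libraries share an isolation is not given, and p-values measure the spread between these cultures.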

Additional observations from a re-analysis of the deposited data

Results flagged for a closer look

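In 48 combinations of gene and group of 4 libraries, 2 held a library far from the other three, and chance alone gives about 1 in 20. *Ercc5* in replicate 2 of the 0.1 Gy group at 6 h had 40.7 CPM, the highest, where the others had 26.4 to 26.6 CPM. *Tigar* in replicate 2 of the 0.1 Gy group at 24 h had 19.0 CPM, also the highest, where the others had 16.8 to 17.1 CPM.

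The effect of 2 Gy on *Polk* was called as different between the times with the replicate block alone, in a fit that called 6.78% of all genes. All pairs were higher at 6 h, as for 8.77% of all genes, and all were lower at 24 h, as for 21.9%. The ratio of means at 24 h was 0.825. The difference of the log2 fold changes was -0.85 with the replicate block (edgeR adjusted p = 0.040), and it was not called without the block (edgeR adjusted p = 0.819) or with the GC and length correction added to the block (-0.53, edgeR adjusted p = 0.074).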

How the results depend on the processing

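Most calls depended on the replicate block. Over all genes the unpaired fit called 0 in each comparison of doses and in the interaction. The replicate block called 1107 genes for 0.1 Gy at 24 h, 2100 for 2 Gy at 24 h, 9 for 2 Gy against 0.1 Gy at 6 h and 1143 for the interaction. Between the times, where the numbers were not taken as pairs, it called 2428 (15.3% of all genes), and *Sesn1* joined *Tigar* (2 members). With the replicate block and the GC and length correction the counts were 239, 452, 131, 283 and 4382 in the same order, 155 for 2 Gy at 6 h and 112 for 2 Gy against 0.1 Gy at 24 h. DESeq2 called 1 gene for 2 Gy at 6 h, 100 for 2 Gy at 24 h, 39 for 2 Gy against 0.1 Gy at 24 h, 7 for the interaction and 1972 between the times, and the fit of all 24 libraries called 108 for 2 Gy at 24 h, 15 for 2 Gy against 0.1 Gy at 24 h and 2488 between the times. Members called were 1 for 2 Gy at 24 h and 1 in the interaction with the block, and 1 for 2 Gy at 6 h and 2 for 2 Gy against 0.1 Gy at 6 h with the block and correction. Between the times they were 2 with DESeq2, 2 with all 24 libraries and 4 with block and correction, which called 27.6% of all genes. The unpaired fit called 1 member and 6.70% of all genes there. A minimum log2 fold change of 1 in size left 564 genes and 0 members between the times. The cause of these differences was not tested.

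When a library was left out of the unpaired fit, it called 0 genes in each comparison of doses and in the interaction, and 170 to 2999 between the times. When a replicate number was left out of the block, all genes called ranged from 0 to 13 for 0.1 Gy at 6 h, 16 to 3728 for 0.1 Gy at 24 h, 0 to 129 for 2 Gy at 6 h, 69 to 5291 for 2 Gy at 24 h, and 1 to 45 and 0 to 161 for 2 Gy against 0.1 Gy at 6 h and 24 h. Over both kinds of fit, members called ranged from 0 to 2 for 0.1 Gy at 24 h, 0 to 2 for 2 Gy at 6 h, 0 to 4 for 2 Gy at 24 h and 0 to 2 between the times. The log2 fold changes whose sign turned included those of *Xpc* after 0.1 Gy at 6 h (-0.098 to 0.034), *Sesn1* after 2 Gy at 6 h (-0.27 to 0.33) and *Ercc5* (-0.10 to 0.25), *Polk* (-0.52 to 0.028) and *Rrm2b* (-0.50 to 0.024) after 2 Gy at 24 h. With the block and correction the sign also turned for *Rrm2b* after 0.1 Gy at 24 h (0.0048). The largest absolute value that turned was 0.31. DESeq2 size factors and the lack of a filter moved no count of calls by over 1.5 times. *Ddb2* had 31 to 134 counts per library, the fewest of the 8 genes.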
